A study of Mus musculus with 21 samples.

Results

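The genes described here are 9 markers of vascular endothelium, the cells that line blood vessels, in a preparation made to enrich germ cells. They were chosen by symbol (Cdh5, Pecam1, Kdr, Flt1, Tek, Tie1, Eng, Esam and Emcn), and all 9 are among the 37620 genes of the table. The preparation comes from testes of C57BL/6J male mice at 12 days postpartum (dpp), an age at which meiosis has begun in the tubules. Testes were digested with collagenase and then trypsin to release the cells, and the labels call the product spermatocytes. RNA was sequenced from 4 samples, numbered 186wt, 343wt, 444wt and 456wt, with 3 libraries of each number. No treatment, genotype or other factor sets the 4 samples apart in the labels. The study's methods describe RNA from 4 replicates, which matches the 4 numbers, so the 3 libraries of a number may be repeats of 1 RNA. The p-values below compare these 4 samples, and the spread they are measured against is that between libraries, which may be technical only. The other 9 libraries of the study measure PRDM9 binding and chromatin and were not analysed here.

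Levels are FPKM (fragments per kilobase of transcript, scaled to the mapped fragments of the library), so they can be compared between genes. The 3 libraries of a sample were averaged, and each mean ± SD is over the 4 samples (n = 4). No count table was analysed, and the depth was estimated from the steps between low FPKM values at 12.84 to 17.66 M (mega) fragments per library. At that depth the members rest on roughly 52 fragments (Tek in its lowest library) to 1446 fragments (Eng in its highest).

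Endothelial cells are held together by junctions of VE-cadherin, PECAM-1 and ESAM. They sense VEGF through the receptors VEGFR-2 and VEGFR-1, angiopoietins through TIE2 with its partner TIE1, and ligands of the BMP and TGF-beta family with the help of endoglin. In the testis the vessels run between the tubules, in the interstitium, next to Leydig cells and macrophages and outside the layer of peritubular myoid cells. Germ cells develop inside the tubules, in contact with Sertoli cells. Several of the 9 genes are also used by other cells. Pecam1 and Esam are found in platelets, Tek in blood progenitors and Eng in some macrophages and mesenchymal cells.

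ETS factors are transcription factors of many endothelial genes and bind around a GGAA core, and so the promoters of the members are shown here. A RefSeq promoter table of build GRCm38.p6, which covers 250 bases before to 50 after each start, held 6 of the 9 members (Kdr, Flt1, Tek, Tie1, Eng and Emcn) and not Cdh5, Pecam1 or Esam. The 4 sequences below are the 200 bases before the start of the 2 VEGF receptor genes, the most abundant member and a sialomucin gene, read 5′ to 3′ on the strand of the gene. Capitals mark AGGAAG or CGGAAG on either strand, so the reverse complement CTTCCT is in capitals too.
Kdr: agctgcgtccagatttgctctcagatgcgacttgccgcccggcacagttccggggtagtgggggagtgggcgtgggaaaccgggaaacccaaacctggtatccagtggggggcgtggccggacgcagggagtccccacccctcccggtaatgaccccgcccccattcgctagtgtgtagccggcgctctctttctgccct
Flt1: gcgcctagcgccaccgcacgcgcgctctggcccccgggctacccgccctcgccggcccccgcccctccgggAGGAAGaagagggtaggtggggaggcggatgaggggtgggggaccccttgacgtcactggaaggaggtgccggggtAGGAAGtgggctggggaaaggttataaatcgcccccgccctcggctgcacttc
Eng: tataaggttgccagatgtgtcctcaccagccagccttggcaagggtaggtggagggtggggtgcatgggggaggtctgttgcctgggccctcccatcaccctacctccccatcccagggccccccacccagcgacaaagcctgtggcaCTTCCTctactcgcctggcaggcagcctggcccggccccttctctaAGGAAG
Emcn: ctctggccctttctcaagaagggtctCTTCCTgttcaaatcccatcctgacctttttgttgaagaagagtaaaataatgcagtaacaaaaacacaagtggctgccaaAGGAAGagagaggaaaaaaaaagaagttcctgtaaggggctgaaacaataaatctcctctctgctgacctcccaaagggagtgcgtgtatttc
They lie at chr5:75978456-75978655 (Kdr, minus strand), chr5:147726012-147726211 (Flt1, minus strand), chr2:32646395-32646594 (Eng, plus strand) and chr3:137340878-137341077 (Emcn, plus strand). Over the full windows the ETS letters AGGAAG or CGGAAG were present in 4 of the 6 members (Flt1, Tie1, Eng and Emcn), each with at least 2 matches. They were in neither Kdr nor Tek. The core GGAA with other letters around it was not counted, and the Kdr sequence above does hold that core. Of 32851 promoters in the table, 46.5% held them and 15.9% held at least 2. The FOX letters AAACAA were in Tek and Emcn and in 20.7% of all promoters, and the GATA letters AGATAA were in Tek and in 11.2%. The TATA box letters TATAAA began 31 bases before the start of Flt1. Anywhere in the window, 13.6% of promoters hold these letters, and the share with them at that position was not counted. Both strands were searched for each motif, and no match of one motif overlapped a match of another in these windows. These are matches of letters only.

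All 9 genes were measured above 0 in each of the 12 libraries. Their mean levels spanned 1.52 FPKM (Flt1) to 17.0 FPKM (Eng), and their sum was 46.5 ± 19.7 FPKM. Among 16578 protein-coding genes that averaged 0.1 FPKM or more, whose median was 9.34 FPKM, Eng stood above 63.8% and Cdh5 above 50.7%. The other 7 stood above 25.4% (Flt1) to 38.5% (Esam) of them. In sample 456wt every member was at its highest, 1.71 to 2.73 times the mean of the other 3 samples, and 8 of the 9 were lowest in 444wt.

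Eng encodes endoglin, a coreceptor for BMP9 and related ligands. Its level was 14.2 FPKM in 186wt, 14.1 in 343wt, 12.8 in 444wt and 26.8 in 456wt, a mean of 17.0 ± 6.59 FPKM. The first 3 lay close together and 456wt stood 1.96-fold above their mean, with no overlap between its libraries (26.17, 26.43 and 27.82 FPKM) and those of the others, of which the highest was 15.07. Eng lies on NCBI build 37 at chr2:32502115-32538189 on the plus strand. It shares 61 exon bases with Fpgs on the opposite strand (25.7 FPKM) and 124 with Ak1 on its own strand (3.09 FPKM), and the strand setting of the alignment is not stated. Fragments in those stretches cannot be assigned to one gene with certainty. No other member shares exon bases with another gene. No stretch of 100 bases of any member's coding transcripts recurs in a protein-coding transcript of another gene, and noncoding and pseudogene transcripts were not searched.

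Cdh5 encodes VE-cadherin, the adhesion molecule of endothelial junctions, and is among the most specific markers of the cell type (chr8:106625525-106668402, plus strand). It was at 6.95 FPKM in 186wt, 11.3 in 343wt, 6.44 in 444wt and 14.05 in 456wt, with a mean of 9.68 ± 3.63 FPKM. The samples formed a low pair and a high pair. The libraries of 343wt (10.95, 11.33 and 11.57 FPKM) overlapped neither the low pair, which reached 7.25, nor 456wt, which began at 13.20.

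Esam, Pecam1 and Emcn each had a single high sample. Esam, an immunoglobulin-family protein of endothelial tight junctions (chr9:37335663-37345904, plus strand), was at 3.67, 4.08, 2.90 and 8.38 FPKM in 186wt, 343wt, 444wt and 456wt. Pecam1, which encodes CD31 (chr11:106515531-106611942, minus strand), was at 3.35, 3.63, 2.45 and 6.82 FPKM in the same order. Emcn encodes endomucin, a surface sialomucin of capillary and venous endothelium (chr3:137004031-137095149, plus strand). Its levels were 1.85, 1.72, 1.21 and 4.36 FPKM, the widest spread of the 9 genes relative to the mean (coefficient of variation 61.6%). For each of these 3 genes the samples 186wt and 343wt overlapped in their libraries, and 456wt overlapped none.

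The VEGF receptors were unequal in level. Kdr encodes VEGFR-2, the main signalling receptor for VEGF-A (chr5:76328852-76374483, minus strand), and was at 2.78 FPKM in 186wt, 2.81 in 343wt, 2.27 in 444wt and 6.48 in 456wt. Flt1 encodes VEGFR-1, which binds VEGF-A tightly and signals weakly (chr5:148373180-148537587, minus strand), and was at 1.13, 1.403, 1.303 and 2.26 FPKM. Flt1 was the member least different between samples (coefficient of variation 33.0%) and the only one whose lowest sample was 186wt. The ratio of Kdr to Flt1 was 2.27 ± 0.499. It was highest in 456wt (2.87) and lowest in 444wt (1.74), and the libraries of those samples did not overlap.

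The angiopoietin receptors were close to each other. Tek encodes TIE2, the angiopoietin receptor (chr4:94405980-94541667, plus strand), and was at 1.25, 1.55, 0.993 and 2.53 FPKM in 186wt, 343wt, 444wt and 456wt. Tie1 encodes its orphan partner (chr4:118143796-118162666, minus strand) and was at 1.67, 1.66, 1.14 and 3.66 FPKM. Tie1 exceeded Tek in 4 of 4 samples, by a ratio of 1.25 ± 0.173. The coefficient of variation between libraries of a sample, averaged over the 4 samples, was largest for Tek, at 18%. Counting alone would give 9.5%. Emcn was similar, with 17% against 9.1%, whereas on this average Kdr, Flt1 and Esam varied by less than the estimated counting error.

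**Figure D1:**
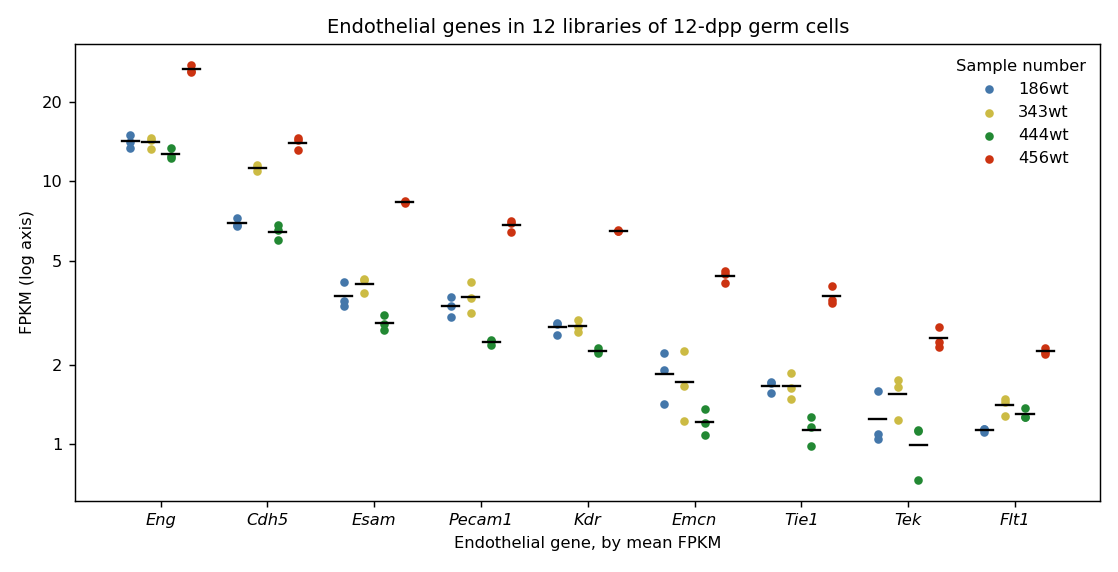
FPKM of the 9 endothelial genes, on a log axis, with 1 point for each of the 12 libraries, coloured by sample number, and a black bar at the mean of the 3 libraries of a sample. The 3 points of 456wt lie above the other 9 for every gene, and for Cdh5 the points of 343wt also lie apart from those of 186wt and 444wt.

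In order of mean level the genes were Eng, Cdh5, Esam, Pecam1, Kdr, Emcn, Tie1, Tek and Flt1. The ranges over samples overlapped for every pair of neighbours, yet within a sample neighbours mostly kept their order. All neighbouring pairs but Tek and Flt1 kept their order in 4 of 4 samples. In 444wt Flt1 (1.303 FPKM) also stood above Emcn (1.213) and Tie1 (1.137), which are not its neighbours. The log2 ratio of a neighbour to the next was largest between Cdh5 and Esam (1.07 ± 0.31) and between Eng and Cdh5 (0.82 ± 0.33). Esam and Pecam1 (0.21 ± 0.08), Pecam1 and Kdr (0.21 ± 0.14), and Emcn and Tie1 (0.14 ± 0.09) were close. Tek and Flt1 were not separable, with a log2 ratio of 0.013 ± 0.27. Eng alone held 37.02 ± 3.16% of the summed FPKM of the 9 genes and Cdh5 held 21.2 ± 3.77%.

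The 4 samples were compared to ask how far the endothelial genes vary within one kind of preparation. The comparison used limma on log2(FPKM + 0.1) over the 20795 genes that averaged 0.1 FPKM or more, and p-values were adjusted by Benjamini-Hochberg over all of them, with 0.05 as the threshold. All 9 endothelial genes differed between the samples, where 58.2% of all genes tested did. Adjusted p-values of the 9 ranged from 5.37e-08 (Kdr) to 0.00128 (Tek). Each sample was then set against the mean of the other 3, so the 4 comparisons share samples. Each difference below is on the log2(FPKM + 0.1) scale.

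In 456wt all 9 genes were called higher than in the others, against 22.9% of all genes tested. None was called lower, against 13.6% of all genes, and all 9 differences were above 0. The median difference of the 9 was 1.11, and that of all genes was 0.05. Differences ran from 0.78 ± 0.086 (SE) for Flt1 (limma, adjusted p = 2.38e-05) to 1.44 ± 0.169 for Emcn (limma, adjusted p = 4.16e-05), with Kdr at 1.28 ± 0.06 (limma, adjusted p = 1.95e-08). All 3 libraries of 456wt lay above the other 9 libraries for 9 of the 9 members, a pattern seen in 9.18% of all genes tested. Each of the 9 kept this call under every setting that retained 456wt, as listed in the closing section. In a bulk sample a larger number of cells of a type and more RNA per cell cannot be told apart.

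In 444wt 8 of the 9 genes were called lower than in the others, against 17.8% of all genes tested. None was called higher, against 26.5% of all genes, and all 9 differences were below 0. The median difference was -0.73, and that of all genes was 0.08. Emcn differed by -0.92 ± 0.169 (limma, adjusted p = 0.00092) and Eng by -0.45 ± 0.045 (limma, adjusted p = 7.76e-06). Flt1 did not pass, at -0.22 ± 0.086 (limma, adjusted p = 0.0588), but passed with a pseudocount of 1 (adjusted p = 0.0365), after quantile normalization (0.0148) or median-ratio scaling (0.0219), and without a variance trend (0.00346), so that 9 of 9 members were then lower. The mean of the others includes 456wt here.

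In 186wt 5 genes (Cdh5, Kdr, Flt1, Eng and Esam) were called lower, against 21.9% of all genes. None was called higher, against 14.8%, and all 9 differences were below 0. In 343wt Cdh5 was the member that was higher, by 0.39 ± 0.05 (limma, adjusted p = 6.49e-05), against 14.5% of all genes, whereas Kdr (-0.29 ± 0.06) and Eng (-0.26 ± 0.045) were lower, against 25.6% of all genes. Kdr lost this call after quantile normalization, at -0.12 (limma, adjusted p = 0.141). For 186wt and 343wt the calls also depended on which other samples entered the mean. With 456wt left out, 5 genes (Cdh5, Pecam1, Kdr, Tie1 and Esam) differed between the remaining 3 samples, against 50.8% of the 20657 genes then tested. Cdh5 was then 0.75 higher in 343wt (limma, adjusted p = 8.24e-06), with Pecam1 at 0.33 and Esam at 0.32 also called, against 14.3% of all genes, and 6 members were still lower in 444wt, against 17.8%. Cdh5 was then the 1 member called lower in 186wt, against 16.0% of all genes. None was called lower in 343wt, against 21.2%, and all 9 differences in 343wt were above 0. With 444wt left out instead, 8 members were lower in 186wt, against 17.2% of all genes, and 6 in 343wt, against 18.6%. With 186wt left out, 4 were lower in 343wt, against 31.7% of all genes.

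**Figure D2:**
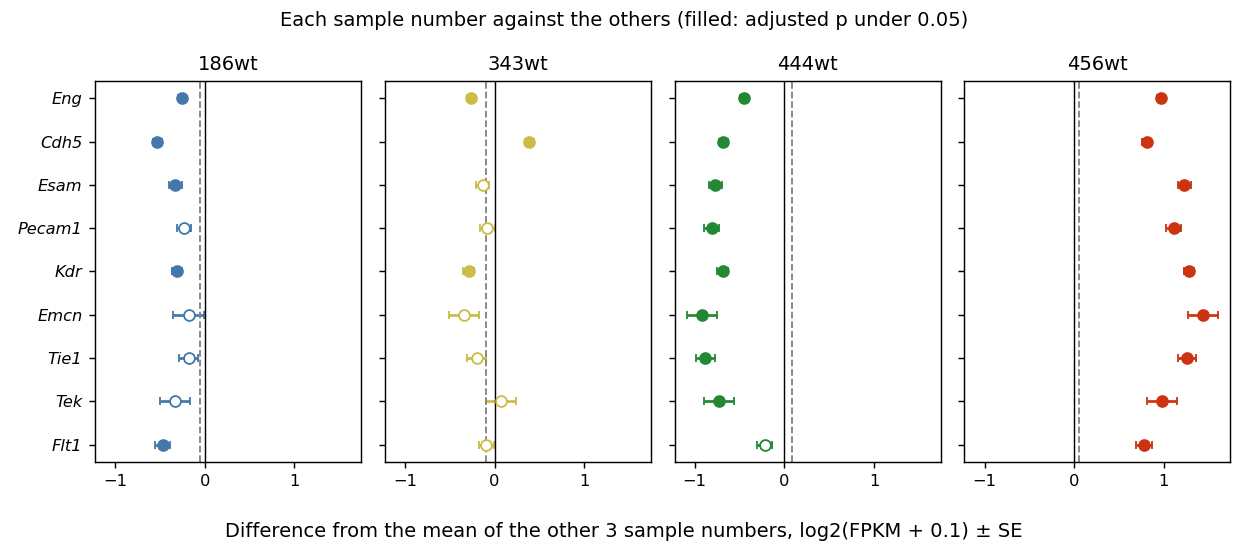
Difference of each sample from the mean of the other 3 for the 9 endothelial genes, on the log2(FPKM + 0.1) scale with the standard error from limma. Filled points passed an adjusted p of 0.05 and the dashed line is the median of all genes tested, and the reader sees all 9 genes above 0.7 in 456wt and below 0 in 444wt, with Flt1 unfilled in the latter.

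Cdh5 and the other members did not keep one ratio. Cdh5 per Eng was 0.489 in 186wt, 0.504 in 444wt and 0.524 in 456wt but 0.799 in 343wt. The libraries of 343wt (0.787 to 0.822) did not overlap those of the other samples, whose highest was 0.559. Cdh5 per Pecam1 was likewise highest in 343wt (3.11) and at 2.06 in 456wt, and the libraries of 343wt and 444wt overlapped in this ratio. The share of Cdh5 in the summed FPKM was 26.7% in 343wt and at most 20.5% in the other samples. Whether Cdh5 differed from the other genes in its change between samples was not tested.

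**Figure D3:**
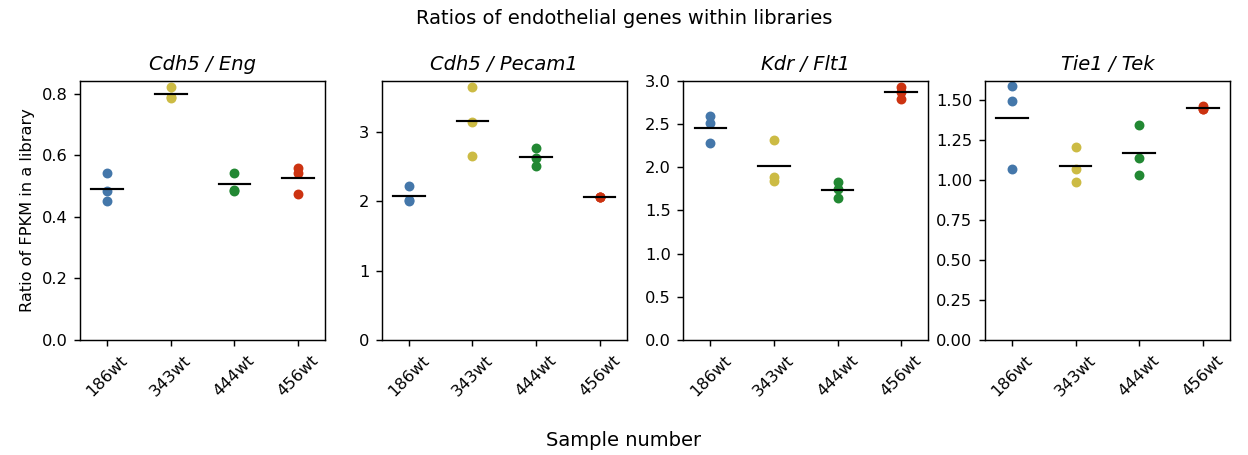
Ratios of FPKM between pairs of endothelial genes within a library, with 1 point per library and a bar at the mean of the 3 libraries of a sample; each axis starts at 0. Cdh5 per Eng is near 0.5 in 3 samples and 0.799 in 343wt, and Kdr per Flt1 runs from 1.74 in 444wt to 2.87 in 456wt.

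The next lists hold other genes of the vessel wall and its signals, with 2 genes of each named for their level. Of 25 other endothelial genes, 24 were higher in 456wt, beside 22.9% of all genes, with a median difference of 0.89. In 444wt 19 were lower and 2 higher, beside 17.8% and 26.5% of all genes. The most abundant were Cd34, a sialomucin of endothelium and of progenitor cells (21.1 ± 8.05 FPKM), and Egfl7, which encodes a secreted endothelial protein (18.6 ± 5.31 FPKM). Cd34 differed by 0.84 ± 0.036 in 456wt (limma, adjusted p = 9.05e-09) and Egfl7 by 0.71 ± 0.064 (limma, adjusted p = 4.66e-06). In 343wt 4 of the 25 were higher (Sox18, Robo4, Cd34 and Thbd) and 3 lower (Egfl7, Ecscr and Rasip1), with a median of -0.02, beside 14.5% and 25.6% of all genes. Sox18, which encodes a transcription factor of vessel development, was at 0.18 ± 0.07 in 456wt (limma, adjusted p = 0.0669). Erg and Rasip1 were the 2 genes higher in 444wt. Sox18, Robo4, Thbd, Ecscr, Erg and Rasip1 are named because of their values.

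The ligands and coreceptors of the 2 receptor pairs moved unequally. Vegfa, the ligand of both VEGF receptors, was at 17.2, 13.7, 11.3 and 12.0 FPKM in 186wt, 343wt, 444wt and 456wt, so its highest level was in 186wt, and in 456wt it differed by -0.21 ± 0.117 (limma, adjusted p = 0.187). The other 9 genes of the list were called higher in 456wt, beside 22.9% of all genes. Vegfb, a ligand of VEGFR-1, was at 10.8, 10.7, 14.7 and 16.0 FPKM, and Pgf, another, at 1.47, 1.08, 1.77 and 2.27. Vegfc, which acts on lymphatic endothelium, was at 0.45 FPKM in 186wt and 1.58 in 456wt, and Figf, which encodes VEGF-D, at 0.83 and 4.62 in the same samples. Angpt1, the activating ligand of TIE2, was low throughout (0.204 ± 0.115 FPKM). Angpt2, the context-dependent ligand that endothelial cells make themselves, was at 0.82, 0.78, 0.74 and 1.84 FPKM. Angpt4 had the largest difference of the list, 2.90 ± 0.256 (limma, adjusted p = 3.93e-06), at a mean of 0.942 ± 1.22 FPKM. The VEGF coreceptors Nrp1 (5.11 ± 1.47 FPKM) and Nrp2 (1.55 ± 0.591 FPKM) differed by 0.69 ± 0.047 and 0.68 ± 0.113.

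Of 6 Notch pathway genes used in endothelium, 3 were higher and 1 lower in 456wt, beside 22.9% and 13.6% of all genes. The lower one was Notch1, a receptor that other cells of the testis also express, at 17.8 ± 3.62 FPKM and a difference of -0.31 ± 0.037 (limma, adjusted p = 5.58e-05). Hey1, a target of the pathway, was at 7.90 ± 1.52 FPKM and differed by 0.50 ± 0.056. Of 9 genes that act with endoglin, 7 were tested. In 456wt 3 were higher and 2 lower, beside the same 22.9% and 13.6%, with a median of 0.07. The most abundant of them are broadly expressed. The signal transducer Smad4 was at 37.3 ± 1.26 FPKM with a difference of 0.04 ± 0.039 (limma, adjusted p = 0.495), and the receptor Tgfbr1 was at 24.7 ± 2.17 FPKM with -0.07 ± 0.025 (limma, adjusted p = 0.0479). Of the circulating ligands of endoglin, Bmp10 was at 0 in all libraries and Gdf2, which encodes BMP9, was at 0.005 ± 0.00638 FPKM. Acvrl1, the endothelial type I receptor for them, was at 10.1 ± 2.15 FPKM, with a difference of 0.53 ± 0.073 in 456wt. Tgfbr2 was at 1.94 ± 0.884 FPKM and had the largest difference of the 7 in 456wt, 1.07 ± 0.08. Acvrl1 and Tgfbr2 are named because of their values. The ratio of Eng to Acvrl1 was 1.65 ± 0.272.

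Other cell types were read from lists of their markers, since each can move with the endothelial genes. All 7 pericyte genes were higher in 456wt, beside 22.9% of all genes, with a median of 1.01. The 2 most abundant were Mcam (64.7 ± 15.8 FPKM), which is also made by endothelium, and Rgs5 (9.40 ± 5.34 FPKM). All 7 genes of peritubular myoid and smooth muscle cells were higher in 456wt too (median 1.22). Unlike the endothelial genes, 5 of the 7 were also higher in 444wt and all 7 lower in 343wt, beside 26.5% and 25.6%. Acta2, smooth muscle actin, was at 473 ± 262 FPKM and Myl9, a myosin light chain, at 323 ± 157. The summed FPKM of the list was 818, 412, 1016 and 1661 in 186wt, 343wt, 444wt and 456wt, and 75.3 was the highest sum of the 9 endothelial genes. Of 4 lymphatic genes tested, 4 were higher in 456wt, beside 22.9% of all genes. Pdpn (20.7 ± 5.75 FPKM), which other stromal cells also make, exceeded Lyve1 (0.598 ± 0.576 FPKM), and Ccl21a was at 0 in all libraries.

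Of 11 genes of blood cells and macrophages, 8 were higher in 456wt, where 22.9% of all genes were, and 7 in 343wt, where 14.5% were. In 444wt 7 were lower and 3 (Hba-a1, Hbb-b1 and Itga2b) higher, beside 17.8% and 26.5% of all genes, and in 186wt 7 were lower, beside 21.9%. Their summed FPKM was 38.6, 97.2, 76.5 and 156 in 186wt, 343wt, 444wt and 456wt. This sum rests largely on the haemoglobin genes. In the same order Hba-a1 was at 8.61, 28.4, 30.6 and 54.0 FPKM and Hbb-b1 at 11.9, 29.2, 35.2 and 68.8. Of the 11 genes, 6 were highest in 343wt and 4 in 456wt. The haemoglobin genes led the list, Hbb-b1 at 36.3 ± 23.8 FPKM and Hba-a1 at 30.4 ± 18.6, and both have near-identical copies, so their values are uncertain. None of the 11 was at 0 in all libraries. Leydig genes mark the steroid-making cells of the interstitium. All 6 were higher in 343wt and all 6 lower in 444wt, beside 14.5% and 17.8% of all genes. In 456wt 3 were higher (Hsd3b1, Insl3 and Cyp11a1), beside 22.9%. Star, which carries cholesterol into mitochondria, differed by -0.71 in 456wt and was the 1 lower, beside 13.6%. In 186wt 5 were higher, beside 14.8%. Hsd3b1 (15.6 ± 9.19 FPKM) and Insl3 (15.5 ± 13.8 FPKM) led them, and the list summed to 56.5, 110, 16.1 and 60.9 FPKM. The part of blood, macrophages and other interstitial cells in the differences of the endothelial genes was not tested.

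The tubule cells ran otherwise. All 9 Sertoli genes were higher in 186wt and in 343wt, beside 14.8% and 14.5% of all genes. They were lower in 444wt and in 456wt, beside 17.8% and 13.6%, with Clu at 1844 ± 574 FPKM and Aard at 580 ± 174. The 8 spermatogonial genes were led by Uchl1 (371 ± 53.5 FPKM) and Dmrt1 (144 ± 17.5). Of them 7 were higher in 456wt and 7 in 444wt, beside 22.9% and 26.5% of all genes. All 8 were lower in 186wt and 6 in 343wt, beside 21.9% and 25.6%. Their median differences were -0.36, -0.18, 0.38 and 0.20 in 186wt, 343wt, 444wt and 456wt. These have the signs of the endothelial medians except in 444wt. Of 12 genes of meiotic prophase, all 12 were lower in 343wt and 11 were higher in 444wt, beside 25.6% and 26.5%. In 456wt 3 of them were higher and 6 lower, beside 22.9% and 13.6% of all genes. Stag3, a meiotic cohesin subunit, was at 92.9 ± 18.7 FPKM and Sycp3, a protein of the synaptonemal complex axis, at 73.1 ± 18.0. The libraries are labelled spermatocytes, and the summed FPKM of the 12 meiotic genes was 455, 360, 585 and 431 in 186wt, 343wt, 444wt and 456wt. The 9 Sertoli genes summed to 4397, 4564, 2549 and 2712 FPKM and the 8 spermatogonial genes to 561, 582, 769 and 697. Both were above the meiotic sum in every sample, but the spermatogonial sum rests largely on Uchl1. The median spermatogonial gene was at 21.3, 25.4, 34.5 and 30.9 FPKM. That was below the median meiotic gene in every sample (38.2, 28.1, 48.15 and 33.3 FPKM).

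**Figure D4:**
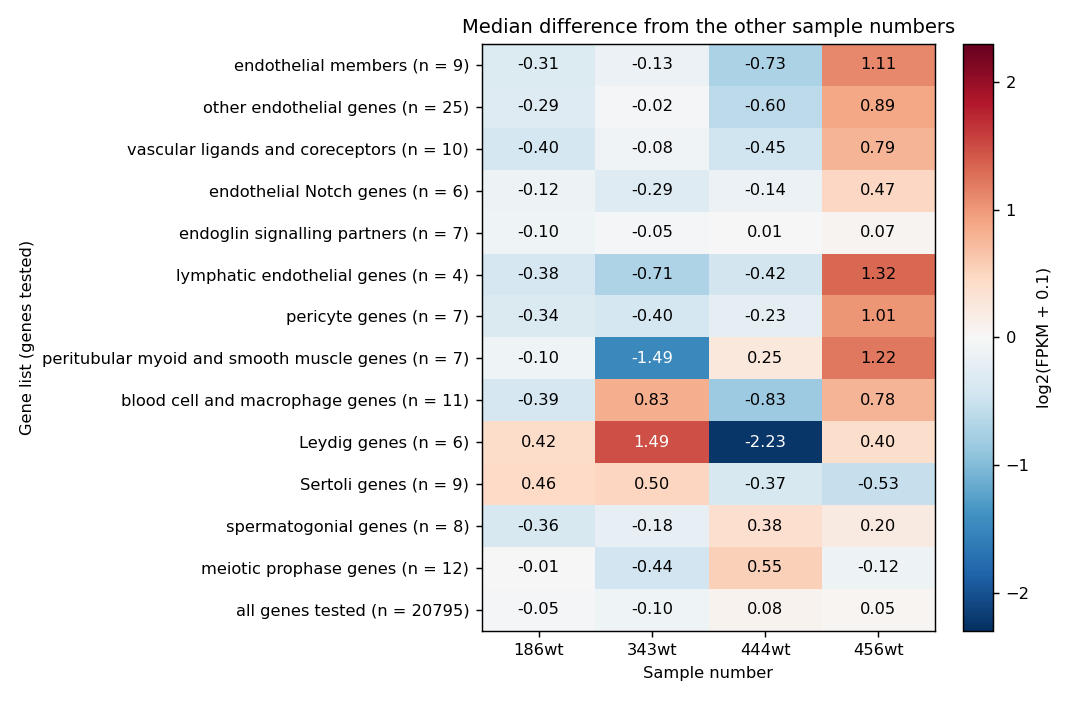
Median difference of each gene list from the mean of the other 3 samples, on the log2(FPKM + 0.1) scale, with the number of genes tested beside each list and all genes tested in the last row. The endothelial members, the other endothelial genes and the pericyte genes are positive in 456wt (1.11, 0.89 and 1.01) and negative in the other 3 samples. The vascular ligands and coreceptors, the Notch genes and the lymphatic genes have the same signs (0.79, 0.47 and 1.32 in 456wt). Leydig, Sertoli and myoid genes have other patterns.

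The profile of the 9 genes over the 4 samples was compared with that of 14339 other genes averaging 1 FPKM or more. Likeness was the root mean square distance between log2 profiles, each centred on its mean, and the mean profile of the members was -0.23, -0.07, -0.51 and 0.82 in 186wt, 343wt, 444wt and 456wt. The nearest gene was Pdgfrb, the PDGF receptor of pericytes and other mural cells, at 0.051 and 4.28 ± 1.94 FPKM. Next came Gpr116 (0.07) and Cd93 (0.086), both of the list of other endothelial genes. Atp8b3, a phospholipid flippase gene, followed at 0.087, and Cav2, which encodes a caveolin, at 0.089. Casp12 (0.09), Igfbp7 (0.094), Abcc9 (0.095), Tmem173 (0.099) and Ifi203 (0.099) completed the 10. Igfbp7 encodes a secreted protein of vessel walls and other stroma and was the most abundant, at 116 ± 51.3 FPKM. The members themselves lay at 0.059 (Pecam1) to 0.23 (Cdh5), and 140 other genes were at least as near as Cdh5. With 4 samples such a profile has few points, and it is a description.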

How the data were processed

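RNA-seq libraries of germ cells enriched from C57BL/6J testes at 12 dpp were used (4 samples, 3 libraries each), and each column of values was matched to its sample by name. The authors aligned 100-bp reads to the transcriptome of NCBI build 37 with Bowtie 0.12.9, discarded those with at least 2 mismatches and estimated FPKM by RSEM 1.2.8, and the deposited FPKM are rounded to 2 decimals. RSEM divides reads among transcripts that match equally well. Genes were placed with GENCODE M1. Libraries were averaged by sample. Differences were tested two-sided with limma 3.58.1 in R 4.3.3 (eBayes with trend) on log2(FPKM + 0.1), and fold changes on this scale understate the change of low genes. Levels, ratios and profiles used Python 3.11.15 (numpy 2.4.6, pandas 2.3.3, scipy 1.17.1, matplotlib 3.10.9). Scripts were tested on simulated data. Counting errors assume the longest transcript of a gene and cover counting only.

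The members and lists were chosen with earlier results of these data known, and the high endothelial level of 456wt was among them. Genes named were all members, the vascular ligand list, the 2 genes of highest mean FPKM in each other list and the 10 nearest profiles, and genes outside this rule are said to be named for their values, as are counts of 5 or fewer. Alternatives were other pseudocounts, filters, scalings and variance models, a block for library number, and leaving out each library or each sample. Library numbers were checked for a pairing of the samples. Between samples, deviations from the sample mean correlated at -0.0648 to 0.128 over 14348 genes for libraries with the same number. Libraries with different numbers gave -0.128 to 0.0835, and these ranges overlap.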

Additional observations from a re-analysis of the deposited data

Results flagged for a closer look

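Of 26 values compared over the 4 samples, 4 had a single sample far from the others, where chance gives about 1.3. Kdr was at 6.48 FPKM in 456wt, with the other samples at 2.27 to 2.81. Eng was at 26.8 FPKM in 456wt, with the others at 12.8 to 14.2. The ratio of Cdh5 to Eng was 0.799 in 343wt, with the others at 0.489 to 0.524. The sum of the vascular ligands and coreceptors was 50.6 FPKM in 456wt, with the others at 35.8 to 36.8. The values share samples and are not independent, and the cause was not tested.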

How the results depend on the processing

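Each member's difference in 456wt kept its direction and its call in all 216 values under the alternatives that retain that sample, from 0.52 to 1.55 on the log2 scale. In 444wt, 215 of 216 values kept their direction. The values for 186wt and 343wt were smaller and depended on which samples they were set against.

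With 456wt left out, the number of members that differed between samples was 5. Those then called lower in 186wt were 1 (beside 16.0% of all genes), those higher in 343wt 3 (14.3%) and those lower in 343wt 0 (21.2%). All 9 differences in 343wt were then above 0. Members lower in 186wt were 8 with 444wt left out (17.2%). Members lower in 343wt were 1 under quantile normalization, where Kdr lost its call, 4 with 186wt left out (31.7%) and 6 with 444wt left out (18.6%). With 456wt left out these differences changed sign: in 186wt Pecam1 (0.16), Kdr (0.13), Tek (0.0), Tie1 (0.27), Eng (0.08), Esam (0.09) and Emcn (0.34), in 343wt Pecam1 (0.33), Kdr (0.16), Flt1 (0.19), Tie1 (0.25), Eng (0.07), Esam (0.32) and Emcn (0.16), and in 444wt Flt1 (0.05). Others changed sign in 343wt: Pecam1 (0.07), Flt1 (0.1) and Esam (0.0) under quantile normalization, Pecam1 without library 2 of 343wt (0.01) and Tek without library 1 of 343wt (-0.02), in ranges of -0.18 to 0.01 and -0.02 to 0.21 over each library left out, and Tek with 186wt left out (-0.04) and with 444wt left out (-0.19). These alternatives change the samples of the mean of the others, or the scaling. The summed FPKM had a mean of 96.6 when each library was rescaled to a sum of 1 M (mega), since the deposited columns sum to 477629 to 485096.

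A block for library number left all 9 members called and 11774 of all genes tested, against 12107 without it, and changed no call count of the members. The median of all genes in 343wt was -0.096, and over all alternatives and samples it lay between -0.138 and 0.128. Depth limits Tek, Tie1 and Emcn most, with as few as 52 to 63 fragments in a library.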
